A study of Mus musculus with 18 samples.

Results

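Pyruvate dehydrogenase kinases and the genes for pyruvate entry into the mitochondrion were followed in the infarcted mouse heart from 10 min to 72 h after coronary ligation. The members were taken by name: the 4 kinases Pdk1, Pdk2, Pdk3 and Pdk4, the phosphatases Pdp1 and Pdp2, the enzyme subunits Pdha1 and Pdhb, and the carrier subunits Mpc1 and Mpc2. They are 10 of the 24419 gene symbols measured, and all 10 were among the 13333 genes kept because some mouse reached an FPKM of 1. FPKM counts sequenced fragments relative to transcript length and library size, so that it can be compared between genes. RNA came from the hearts of 18 male C57BL/6 mice aged 8 weeks, 3 per group, all anaesthetised with sodium pentobarbital (50 mg/kg). In 5 groups of AMI (acute myocardial infarction) mice the proximal left anterior descending coronary artery was tied and left ventricle tissue of the infarct was taken 10 min, 1 h, 6 h, 24 h or 72 h later. The remaining group, named control in the labels, was sham-operated in the study and is called sham here. It served every time, so ligation and the time since operation and anaesthesia cannot be told apart.

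Pyruvate, the end product of glycolysis, crosses the inner mitochondrial membrane through a carrier built of MPC1 and MPC2. The pyruvate dehydrogenase complex turns it into acetyl-CoA for the citric acid cycle. Kinases of the PDK family phosphorylate the alpha subunit (PDHA1) and shut the complex off, and the phosphatases PDP1 and PDP2 take the phosphate away. The heart burns mostly fatty acids, and Pdk4 is known as the kinase gene switched on with fatty acid use, in fasting and diabetes, by PPAR and FOXO factors and glucocorticoids, whereas Pdk1 is known as a target of the hypoxia factor HIF1. What was measured here is RNA, not phosphorylation or enzyme activity.

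The 3 kinases with the widest change in RNA were Pdk4 (up at 6 h), Pdk2 (down) and Pdk3 (up to 72 h), and their promoters are shown so that genes of 1 family that moved apart can be compared. The letters come from RefSeq for GRCm38.p6, the assembly named mm10 in the labels, and run 5′ to 3′ along the gene. They begin 250 bases before the RefSeq start and end before the first annotated transcript base. Capitals mark the motifs searched for and found on either strand. The windows are chr6:5496310-5496528 on the minus strand for Pdk4, chr11:95041372-95041621 on the minus strand for Pdk2 and chrX:93832202-93832400 on the minus strand for Pdk3.
Pdk4: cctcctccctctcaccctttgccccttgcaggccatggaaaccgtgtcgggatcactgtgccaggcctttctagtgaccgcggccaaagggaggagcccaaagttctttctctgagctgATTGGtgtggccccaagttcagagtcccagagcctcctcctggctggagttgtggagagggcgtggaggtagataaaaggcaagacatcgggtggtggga
Pdk2: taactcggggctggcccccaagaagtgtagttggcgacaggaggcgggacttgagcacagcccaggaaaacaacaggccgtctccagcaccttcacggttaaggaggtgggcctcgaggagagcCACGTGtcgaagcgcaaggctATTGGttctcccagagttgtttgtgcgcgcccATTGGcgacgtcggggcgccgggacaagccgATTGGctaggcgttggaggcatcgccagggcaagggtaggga
Pdk3: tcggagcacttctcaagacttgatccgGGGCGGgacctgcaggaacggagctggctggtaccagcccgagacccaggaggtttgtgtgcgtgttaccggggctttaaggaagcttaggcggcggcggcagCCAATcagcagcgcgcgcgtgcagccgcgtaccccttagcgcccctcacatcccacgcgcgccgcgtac
Pdk4 held 1 CCAAT box (CCAAT, read here as ATTGG), at -131 from the RefSeq start in its 219 bases, and 31.4% of 27025 promoters held this motif in the same window. Pdk2 held 3 of them (at -105, -73 and -42) and 1 E-box (CACGTG, at -126) in 250 bases, where 34.5% and 6.05% of all promoters held the motif. The E-box contains the hypoxia core ACGTG on both strands, which 16.6% of promoters held. Pdk3 held a CCAAT box at -120 and a GC box (GGGCGG) at -223 in 199 bases, motifs that 28.7% and 24.3% of promoters held. The FOXO site (GTAAACA) was in none of the 3 windows, and 2.74% of promoters held it in the window of Pdk4. The TATA box (TATAAA, 10.3%) and the nuclear receptor core (AGGTCA, 12.3%) were in none of them either, nor was the cAMP response element (TGACGTCA, 1.15%). These are letter matches in a short window, not binding sites. Promoters of 9 of the 10 members matched by symbol.

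In the sham heart the members differed widely in level. Pdha1 had the highest FPKM, 1011 on average, followed by Pdhb (615), Mpc1 (165), Pdk2 (129), Pdk1 (98.4), Pdk4 (97.0), Mpc2 (64.7), Pdp2 (10.5), Pdp1 (6.75) and Pdk3 (1.08). The sham mice of neighbours in this order did not overlap, except Pdk1 (97.0 to 101) and Pdk4 (77.6 to 118). Both phosphatase transcripts lay below Pdk1, Pdk2 and Pdk4 and above Pdk3.

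Each time was compared with the same 3 sham mice on log2(FPKM + 1) with limma, with Benjamini-Hochberg adjustment across 13297 to 13329 genes. "Called" stands for an adjusted p under 0.05. A log2 fold change (log2FC) is given with its standard error (SE), and this scale makes changes at low FPKM, as in Pdk3, look smaller. At 10 min and at 1 h limma called none of the 10 members, and 2 of them (Pdk4 and Mpc1) had an unadjusted p under 0.05 at each time. Over all genes the 10 min comparison called 0.248% higher and 0.0978% lower, the 1 h comparison 0.669% and 0.0526%, and 14.7% and 12.6% of genes had an unadjusted p under 0.05. At 6 h 2 members were called higher (Pdk4 and Pdk3) and 3 lower (Pdk2, Pdp1 and Mpc1), against 11.6% higher and 16.8% lower among all genes, and 6 members (2 above and 4 below) did not overlap with sham, against 18.6% and 30.2%. At 24 h 1 was higher (Pdk3) and 5 were lower (Pdk2, Pdp2, Pdhb, Mpc1 and Mpc2), against 26.2% and 11.4%, and all mice lay above sham for 1 member and below for 6, against 39.3% and 18.9%. At 72 h 1 was higher (Pdk3) and the other 9 were lower, against 53.1% and 24.2% of all genes, with none of the 10 overlapping with sham, where 55.1% of all genes lay above and 25.4% below. The median log2FC of the members was -0.15 at 6 h, -0.38 at 24 h and -0.999 at 72 h, beside -0.08, 0.13 and 0.29 over all genes tested. Leaving out any 1 sham mouse lowered the count of lower members to 1 at 6 h (Pdp1) and to 1 at 24 h (Pdk2), while both counts at 72 h stayed the same without any 1 mouse.

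The study itself called genes at an unadjusted p under 0.05 and a ratio over 2, and these thresholds were also put on the p of limma. Pdk4 alone was higher at 10 min, 1 h and 6 h, where 0.684%, 1.12% and 6.76% of all genes were higher and 0.526%, 0.429% and 3.52% lower. Pdk3 alone was higher at 24 h and 72 h, against 11.7% and 26.5% of all genes. No member was lower at 24 h by this rule (2.81% of all genes), and 5 were at 72 h (Pdk2, Pdha1, Pdhb, Mpc1 and Mpc2, against 8.44%). Between neighbouring times 0 members passed from 10 min to 1 h (0.88% of genes higher, 0.414% lower), Pdk4 was higher from 1 h to 6 h (5.89% higher, 2.75% lower), Pdk3 was higher and Pdk4 lower from 6 h to 24 h (6.97% and 1.51%), and Pdk3 was higher and Pdk2 and Pdk4 lower from 24 h to 72 h (15.5% and 3.26%).

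**Figure D1:**
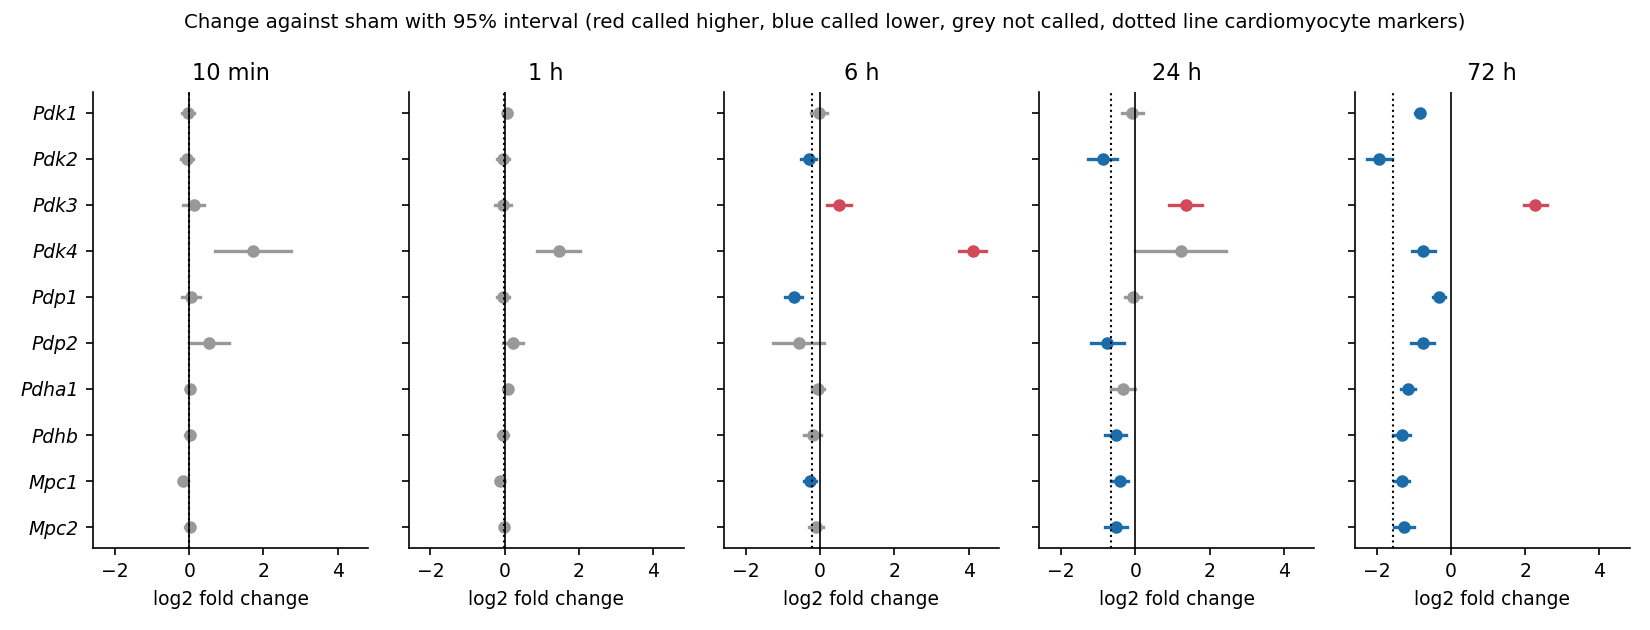
Log2 fold change against sham (x axis) of each of the 10 members (y axis) at the 5 times, with the 95% interval from limma as bars. Red points were called higher, blue lower and grey not called, and the dotted line is the mean change of 10 cardiomyocyte markers. Pdk4 stands at 4.11 at 6 h, and at 72 h Pdk3 alone lies to the right of 0.

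The tissue was checked with marker genes, because FPKM of whole tissue mixes the cell types it holds. Cardiomyocyte markers were abundant in every sham mouse. The summed FPKM of 10 cardiomyocyte markers (such as Tnnt2, Myh6 and Atp2a2) was 72390 to 76450 in the sham mice, 60050 to 72030 at 6 h, 44220 to 57010 at 24 h and 24140 to 31470 at 72 h. Their mean log2 level differed from sham by -0.67 at 24 h and -1.57 at 72 h, and 7 and 10 of the 10 were called lower. Macrophage and monocyte markers (8 of 8 called higher at 72 h) rose from a sum of 199.5 to 228 FPKM to a sum of 3512 to 4612 at 72 h, and fibroblast markers (8 of 8) from 259 to 292 up to 3823 to 4942. All 6 pan-leukocyte markers were higher at 24 h and 72 h. Neutrophil markers (5 of the 6 listed were analysed here) summed to 2.32 to 4.93 FPKM in the sham mice, to 116 to 991 at 6 h, to 42.8 to 956 at 24 h and to 51.5 to 61.9 at 72 h, and all 5 were called higher at these 3 times. Of the endothelial markers 3 of 6 were lower at 72 h, and among lymphocyte and erythroid markers 2 of 2 tested were higher and 2 of 5 lower at 72 h. Among all genes 11.6% were called higher and 16.8% lower at 6 h. At 24 h these shares were 26.2% and 11.4%, and at 72 h 53.1% and 24.2%. The endothelial, lymphocyte and erythroid counts rest on few genes and were not read further. In bulk tissue, fewer cells of a type and less RNA per cell cannot be told apart. The table holds no read counts. The relative depth estimated from the lowest FPKM values ran from 0.813 to 1.32. It was 0.977 to 1.11 in the sham mice and 1.24 to 1.32 at 72 h.

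Pdk4 (chromosome 6, 5483351 to 5496309, minus strand of mm10, by GENCODE M21) had by far the widest course. It had 118, 95.2 and 77.6 FPKM in the 3 sham mice, 144, 381 and 574 at 10 min, and 391, 234 and 201 at 1 h. At 6 h it reached 1567, 1921 and 1531 FPKM. At 24 h the mice had 246, 96.9 and 465 FPKM, and at 72 h 61.5, 53.8 and 55.3. Every mouse at 10 min, 1 h and 6 h lay above every sham mouse, the 24 h mice overlapped with sham, and every 72 h mouse lay below. The mean at 6 h was 17.2 times that of sham (log2FC 4.11, SE 0.16, adjusted p = 4.6e-05), and the 6 h mice stood at 15.8 to 19.8 times the sham mean. Every alternative to the limma fit kept this call, with a log2FC from 3.86 to 4.26.

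Before 6 h the change of Pdk4 RNA was large but uneven between mice. Among its early proteins, of 10 min and 1 h, the study named Pdk4 as downregulated and as a potential diagnostic marker. RNA and protein are unlike measures, and no protein was analysed here. At 10 min the 3 mice stood at 1.49, 3.93 and 5.91 times the sham mean (log2FC 1.72, SE 0.44, adjusted p = 0.165). Without 10 min mouse 1 limma called it (log2FC 2.28, adjusted p = 0.0189). At 1 h the mice stood at 4.03, 2.42 and 2.07 times the sham mean (log2FC 1.46, SE 0.25, adjusted p = 0.0587). That p crossed the threshold with a replicate block (0.00258), with a pseudocount of 0.1 (0.0488), with a filter on the mean FPKM (0.0368), and without 1 h mouse 1 (0.0473) or mouse 3 (0.0322), so the call at 1 h rests on the setting. From 10 min to 1 h limma called 0 members, none at an unadjusted p under 0.05 either (0.391% of all genes higher, 0.211% lower, 13.1% at an unadjusted p under 0.05). All mice lay above all sham mice for 12.2% of all genes at 10 min and 7.41% at 1 h.

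Ucp3 and Angptl4, from the list of PPAR- and FOXO-linked fuel genes, were set beside Pdk4 in these early mice. Ucp3, a mitochondrial carrier protein of muscle, had 21.5, 22.3 and 21.3 FPKM in the sham mice and 29.4, 92.9 and 183 in the 10 min mice. Angptl4, a secreted inhibitor of lipoprotein lipase, had 0.30, 0.47 and 0.52 FPKM in the sham mice and 0.74, 3.83 and 10.4 in the 10 min mice. In both genes, as in Pdk4, mouse 1 was the lowest and mouse 3 the highest of the 10 min group. Summed neutrophil markers ran the other way in these mice, with 23.6, 8.31 and 5.42 FPKM. So did the cardiomyocyte (73180, 68370 and 68170) and erythroid sums. Macrophage and monocyte (221, 257 and 286), fibroblast (305, 309 and 358) and lymphocyte sums (2.16, 3.39 and 3.40) ran in the order of Pdk4. Endothelial and pan-leukocyte sums followed neither order. The part of these cells in the 3 genes was not tested. Neither gene was called at 10 min (adjusted p = 0.207 for Ucp3 and 0.256 for Angptl4). At 1 h mouse 1 was the highest in all 3 genes, with 67.3 FPKM of Ucp3 and 5.88 of Angptl4. Both genes were called higher at 6 h, with log2FC of 1.99 (adjusted p = 0.00333) and 4.44 (adjusted p = 0.00015). They were picked from the list after their values had been seen.

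**Figure D2:**
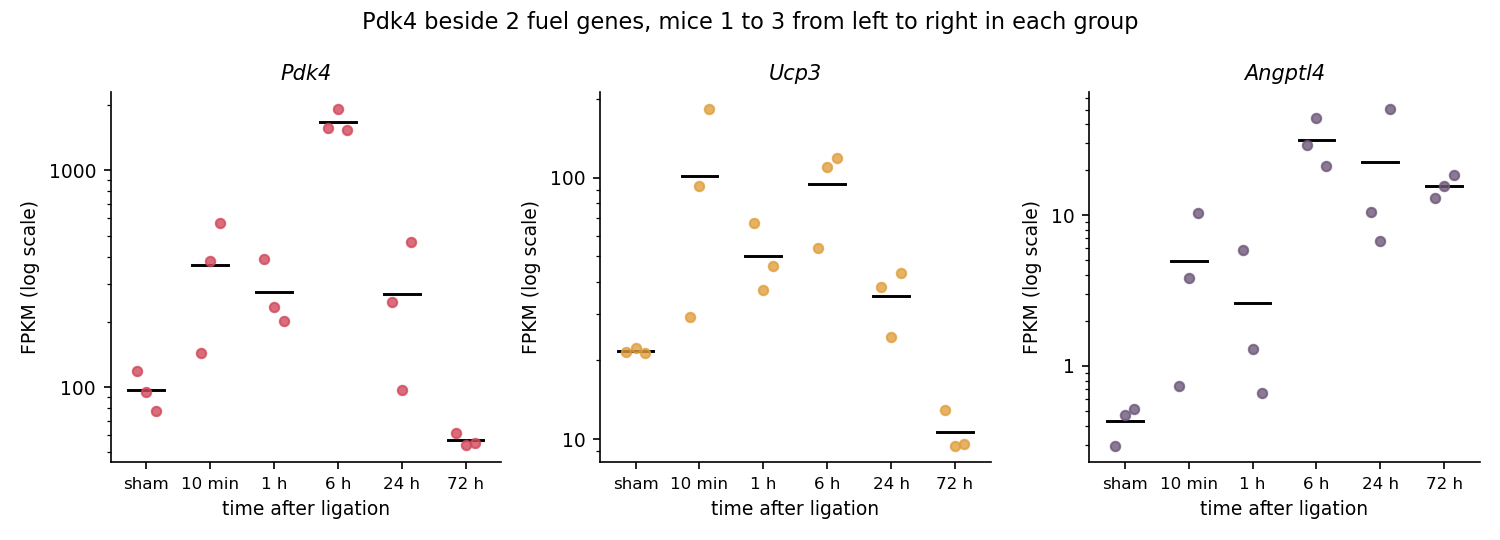
FPKM on a log axis (y) of Pdk4, Ucp3 and Angptl4 in each mouse (points, mice 1 to 3 from left to right) by time after ligation (x), with the group mean as a line. The 10 min mice keep the same order in all 3 panels, from 144 to 574 FPKM for Pdk4, and at 72 h Pdk4 and Ucp3 lie below the sham mice while Angptl4 lies above.

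From 1 h to 6 h the step of Pdk4 was called (log2FC 2.65, SE 0.23, adjusted p = 0.00108), one of 2 members called higher over that step (Pdp1 alone was lower), against 9.32% and 11.2% of all genes. After 6 h Pdk4 came down, together with 2 members called higher (Pdk3 and Pdp1), against 1.94% of all genes lower and 12.5% higher. The mean fell from 1673 FPKM at 6 h to 269 at 24 h (log2FC -2.89, SE 0.49, adjusted p = 0.0194), with every 24 h mouse below every 6 h mouse. Leaving out any 1 of the 6 h mice ended this call (adjusted p from 0.0554 to 0.0844), as did a replicate block (adjusted p = 0.077). Against sham the 24 h mean was 2.78 times that of sham and not called (log2FC 1.21, SE 0.51, adjusted p = 0.0999). Without mouse 2 of 24 h, at 0.999 times the sham mean, Pdk4 was called (log2FC 1.81, adjusted p = 0.0151). With that mouse kept, all 18 mice in 1 fit also called it (log2FC 1.21, adjusted p = 0.046). Summed neutrophil markers were 209, 42.8 and 956 FPKM in the 3 mice of 24 h, in the same order as Pdk4. So were the erythroid sums (2297, 2179 and 3050), while the sums of the other marker lists did not follow that order. At 6 h the neutrophil sums did not follow Pdk4, since mouse 2 had the highest Pdk4 and, with 116 FPKM, the lowest neutrophil sum. The erythroid sums (3097, 6366 and 3029) again ran in the order of Pdk4. The part of these cells in the level of Pdk4 was not tested. From 24 h to 72 h Pdk4 fell again (log2FC -1.96, SE 0.49, adjusted p = 0.0157), a call lost without 24 h mouse 1 (adjusted p = 0.0558) or without 72 h mouse 2 (0.0557) or mouse 3 (0.0508). At 72 h it was 1.71-fold below sham (log2FC -0.74, SE 0.14, adjusted p = 0.00111), a call lost when all 18 mice shared 1 estimate of the spread (adjusted p = 0.175).

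Pdk2 (chromosome 11, 95026258 to 95041354, minus strand), the kinase with the highest FPKM in sham heart and a cardiomyocyte marker in the study, was lower at 6 h, 24 h and 72 h. The sham mice had 134, 133 and 119 FPKM, and the 10 min and 1 h mice 114 to 132 and 115 to 131, overlapping with sham. At 6 h the mice had 99.1, 112 and 100 FPKM, all below sham (log2FC -0.31, SE 0.08, adjusted p = 0.0304). This small fall was not called with median-of-ratios scaling (adjusted p = 0.155), without any 1 sham mouse, without 6 h mouse 1 or mouse 3, or with all 18 mice in 1 fit (adjusted p = 0.131), and the replicate block gave 0.0539. At 24 h they had 87.2, 70.3 and 54.4 FPKM (1.83-fold lower, log2FC -0.88, SE 0.17, adjusted p = 0.01), and at 72 h 42.4, 27.3 and 31.4 (3.83-fold lower, log2FC -1.93, SE 0.14, adjusted p = 3.7e-06). No member had a lower log2FC than Pdk2 at 24 h or 72 h.

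Pdk1 (chromosome 2, 71873224 to 71903858, plus strand) was called only at 72 h. The mice had 97.0, 101 and 97.6 FPKM in sham, 85.3 to 107 from 10 min to 6 h and 106, 77.9 and 96.2 at 24 h, and over these times the 95% intervals of its log2FC lay between -0.37 and 0.20. At 72 h they had 54.1, 55.5 and 53.3 FPKM, 1.81-fold below sham (log2FC -0.85, SE 0.06, adjusted p = 2.23e-06). The step from 24 h to 72 h was called (log2FC -0.76, SE 0.13, adjusted p = 0.00308), as it was for 7 members downward and 1 upward, against 13.5% and 29.7% of all genes.

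Pdk3 (chromosome X, 93764607 to 93832201, minus strand), a kinase known mainly from testis, was the only one that rose at 6 h, 24 h and 72 h. From 1.04, 1.29 and 0.90 FPKM in the sham mice and 0.95, 1.19 and 0.91 at 1 h, it went to 2.40, 1.503 and 2.07 at 6 h. The 24 h mice had 3.15, 4.28 and 5.71 FPKM and the 72 h mice 7.40, 9.25 and 10.8. From 6 h on, no group overlapped with the one before, though 10 min mouse 2 (1.588 FPKM) lay above 6 h mouse 2. The mean was 4.06 times that of sham at 24 h (log2FC 1.35, SE 0.18, adjusted p = 0.00492) and 8.48 times at 72 h (log2FC 2.28, SE 0.13, adjusted p = 9.75e-07). The rise at 6 h (log2FC 0.52, SE 0.14, adjusted p = 0.0301) was lost without any 1 sham mouse, without 6 h mouse 1 or mouse 3, without a filter on low FPKM (adjusted p = 0.0521) and with a replicate block (0.0619). The steps were called from 1 h to 6 h (log2FC 0.56), from 6 h to 24 h (0.83) and from 24 h to 72 h (0.93), with adjusted p of 0.0276, 0.0398 and 0.00873. The step to 6 h was lost without any 1 of the 1 h mice, without 6 h mouse 1 or mouse 3 and with a replicate block (0.064). The step to 24 h was lost without any 1 of the 6 h mice, without 24 h mouse 2 or mouse 3, with median-of-ratios scaling (adjusted p = 0.0815) or quantile normalization (0.0954), with a replicate block (0.095) and without a filter on low FPKM (0.073). Of the 6 pan-leukocyte markers 2 were called higher at 6 h and all 6 at 24 h and 72 h. Among all genes 11.6%, 26.2% and 53.1% were called higher at these times. The median log2FC of the 6 markers was 0.99, 2.31 and 3.89. Their part in the rise of Pdk3 was not tested.

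**Figure D3:**
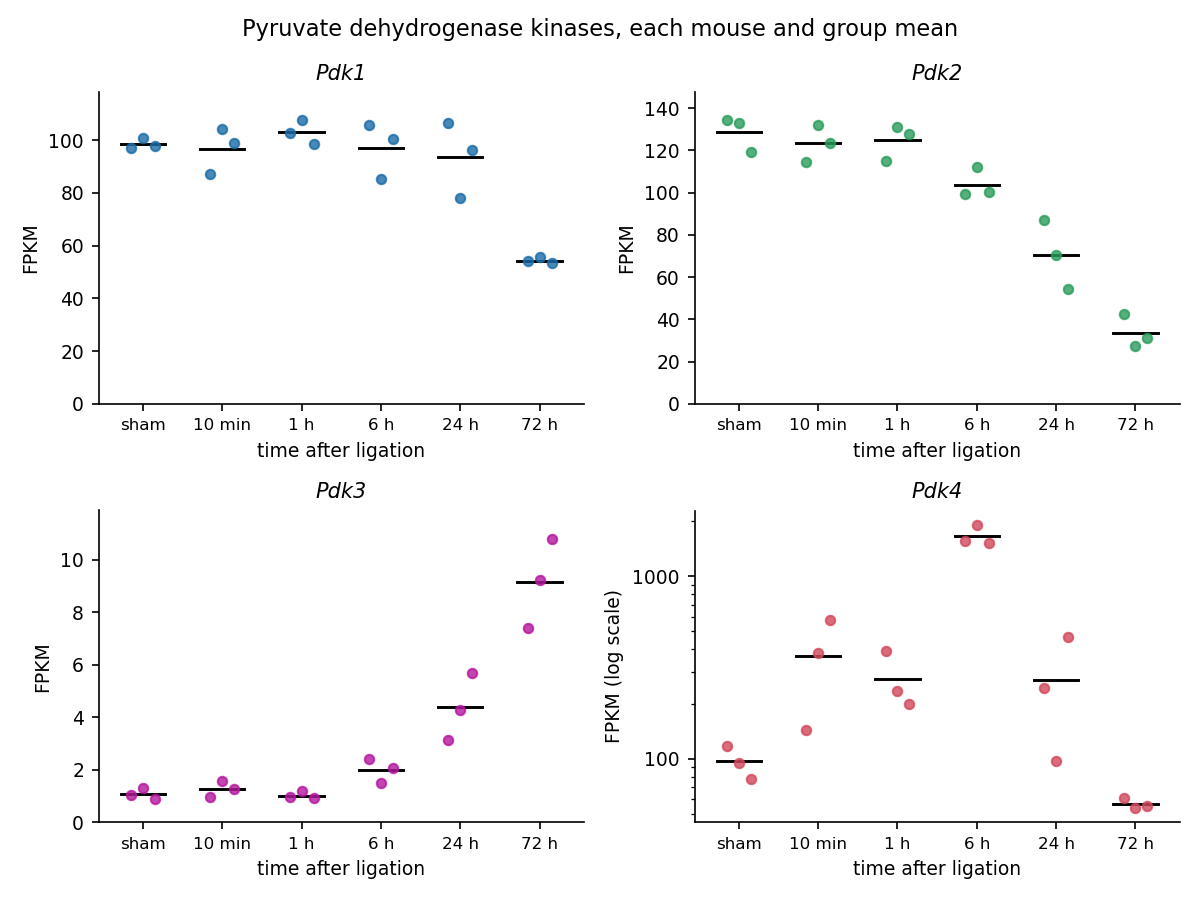
FPKM (y axis, log scale for Pdk4 and linear from 0 for the others) of the 4 kinases in each mouse (points) by time after ligation (x axis), with the group mean as a line. Pdk4 is highest in the 3 mice of the 6 h group, Pdk2 is lower from 6 h on, Pdk1 is lower at 72 h than at 24 h, and Pdk3 goes from about 1 to 10.8 FPKM.

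These courses changed the make-up of the kinase transcripts. In sham heart Pdk2 made up 39.7% ± 1.20 (SD, n = 3) of the summed FPKM of the 4 kinases, Pdk1 30.4% ± 2.68, Pdk4 29.6% ± 3.81 and Pdk3 0.331% ± 0.0527. Pdk4 made up 41.6% to 72.0% at 10 min and 47.0% to 64.1% at 1 h. At 6 h it made up 89.1% ± 1.33, with Pdk1 and Pdk2 at 5.26% and 5.55%. At 24 h its share ran from 38.9% to 74.9%, and at 72 h it was 36.9% ± 0.252, while Pdk2 had 21.7% ± 3.55 and Pdk3 5.99% ± 1.38. The summed FPKM of the kinases was 325.5 ± 27.9 in sham, 1876 ± 212 at 6 h and 154 ± 10.1 at 72 h. Such shares do not depend on how a library is scaled, only on the relative levels of the 4 genes.

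**Figure D4:**
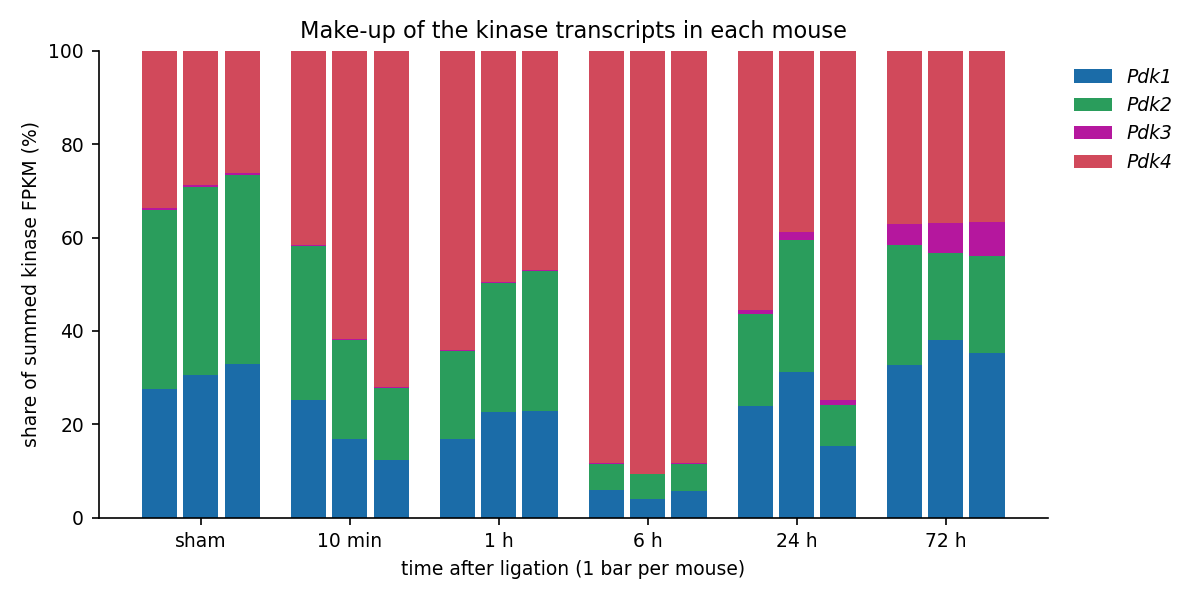
Share of each kinase in the summed FPKM of Pdk1 to Pdk4 (y axis, percent) in every mouse (1 bar each), grouped by time after ligation (x axis). Pdk4 fills 88.3% to 90.6% of each bar at 6 h, and Pdk3 becomes visible at 24 h and reaches 4.47% to 7.16% at 72 h.

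The ratio of Pdk4 to Pdk2 within each mouse was higher than in every sham mouse at all 5 times. It was 21.6 times that of sham at 6 h, 4.33 times at 24 h and 2.31 times at 72 h. The exact two-sided permutation test gave p = 0.1 at each time (adjusted p = 0.1), the smallest that 3 mice against 3 allow. Relative to Pdha1, the substrate of the kinases, the summed kinase FPKM was 5.95 times that of sham at 6 h (all 3 mice above sham, exact permutation p = 0.1, adjusted p = 0.25) and 1.05 times at 72 h (groups overlapped, exact permutation p = 0.5).

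Of the phosphatases Pdp1 was called lower at 6 h and 72 h, and Pdp2 at 24 h and 72 h. Whether their courses differ was not tested. Pdp1 (chromosome 4, 11958184 to 11966452, minus strand) had 6.81, 6.70 and 6.74 FPKM in the sham mice and 3.58, 3.49 and 4.16 at 6 h, a 1.80-fold fall (log2FC -0.71, SE 0.10, adjusted p = 0.003) that was called under every alternative of the limma fit, though its ratio stayed under 2. At 24 h it was back at 6.96, 6.36 and 6.02 FPKM, not called against sham and higher than at 6 h (log2FC 0.65, SE 0.13, adjusted p = 0.0245). The step back up was lost without any 1 of the 6 h mice, without 24 h mouse 2, with median-of-ratios scaling (adjusted p = 0.0668) or quantile normalization (0.109), and with a replicate block (0.0832). At 72 h the mice had 5.19, 5.24 and 5.13 FPKM (log2FC -0.32, SE 0.07, adjusted p = 0.00204). Scaling decided the size of this last fall, from -0.26 with equal sums of FPKM to -0.82 with quantile normalization. Among the members Pdp1 alone was lower at 6 h, near sham at 24 h and lower again at 72 h, and its dip coincided with the peak of Pdk4.

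Pdp2 (chromosome 8, 104591451 to 104599026, plus strand) had 9.17, 11.4 and 10.9 FPKM in the sham mice. In the 10 min mice it had 10.0, 18.2 and 20.6 FPKM, in the same order as Pdk4, and was not called (adjusted p = 0.341), but it was without mouse 1 (log2FC 0.83, adjusted p = 0.0402). At 6 h it had 4.59, 5.36 and 11.9 FPKM (adjusted p = 0.178), and without mouse 3 the fall was called (log2FC -0.94, adjusted p = 0.00509). At 24 h all mice were below sham with 7.72, 5.84 and 4.22 FPKM (log2FC -0.76, SE 0.19, adjusted p = 0.0233), a call lost without any 1 sham mouse and without 24 h mouse 2 (adjusted p from 0.0533 to 0.0851). Pdp2 was not called over the step from 6 h to 24 h (log2FC -0.19, SE 0.33, adjusted p = 0.709). It stood at 6.11, 6.80 and 4.57 FPKM at 72 h, 1.80-fold below sham (log2FC -0.76, SE 0.13, adjusted p = 0.000794). The sum of both phosphatases over the sum of the kinases was 9.43-fold lower than in sham at 6 h, with all 3 mice below (exact permutation p = 0.1, adjusted p = 0.167), and 1.35 times that of sham at 72 h, with all 3 mice above (exact permutation p = 0.1, adjusted p = 0.167).

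Of the enzyme and carrier subunits, only Mpc1 was called by 6 h, and all 4 were lower at 72 h. Pdha1 (chromosome X, 160122209 to 160138413, minus strand) had 985, 1028 and 1021 FPKM in the sham mice and 955, 935 and 1049 at 6 h. The 24 h mice had 979, 728 and 730 FPKM and the 72 h mice 489, 460 and 418. Only the difference at 72 h was called (2.22-fold lower, log2FC -1.15, SE 0.09, adjusted p = 3.65e-06). At 24 h all 3 mice were below sham, but mouse 1 was close to them, and the adjusted p was 0.0903 with it and 0.00657 without it. Pdhb (chromosome 14, 8165996 to 8173025, minus strand), the beta subunit, had 586, 637 and 623 FPKM in the sham mice, 491, 416 and 375 at 24 h (log2FC -0.53, SE 0.12, adjusted p = 0.0154) and 278, 241 and 218 at 72 h (2.51-fold lower, log2FC -1.33, SE 0.10, adjusted p = 3.77e-06).

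Mpc1 (chromosome 17, 8282904 to 8297661, plus strand) had 168, 167 and 159 FPKM in the sham mice. It had 156, 140 and 148 FPKM at 10 min and 149, 147 and 158 at 1 h, all below sham but not called (adjusted p = 0.27 and 0.362). All mice lay below all sham mice for 8.15% and 10.9% of all genes at these times. At 6 h it had 130, 139 and 140 FPKM (log2FC -0.27, SE 0.07, adjusted p = 0.0226), a call lost without any 1 sham mouse and with median-of-ratios scaling (adjusted p = 0.113) or a replicate block (0.0692). It had 131, 128 and 109 FPKM at 24 h (log2FC -0.43, SE 0.09, adjusted p = 0.0155) and 74.2, 61.1 and 61.0 at 72 h (2.52-fold lower, log2FC -1.33, SE 0.09, adjusted p = 1.84e-06). Mpc2 (chromosome 1, 165460637 to 165481214, plus strand) had 63.8, 65.1 and 65.1 FPKM in the sham mice, 51.7, 47.4 and 37.1 at 24 h (log2FC -0.51, SE 0.13, adjusted p = 0.0208) and 32.5, 22.7 and 24.6 at 72 h (2.43-fold lower, log2FC -1.27, SE 0.12, adjusted p = 1.63e-05). The calls of Pdhb, Mpc1 and Mpc2 at 24 h were lost without any 1 sham mouse (adjusted p from 0.0534 to 0.0747).

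**Figure D5:**
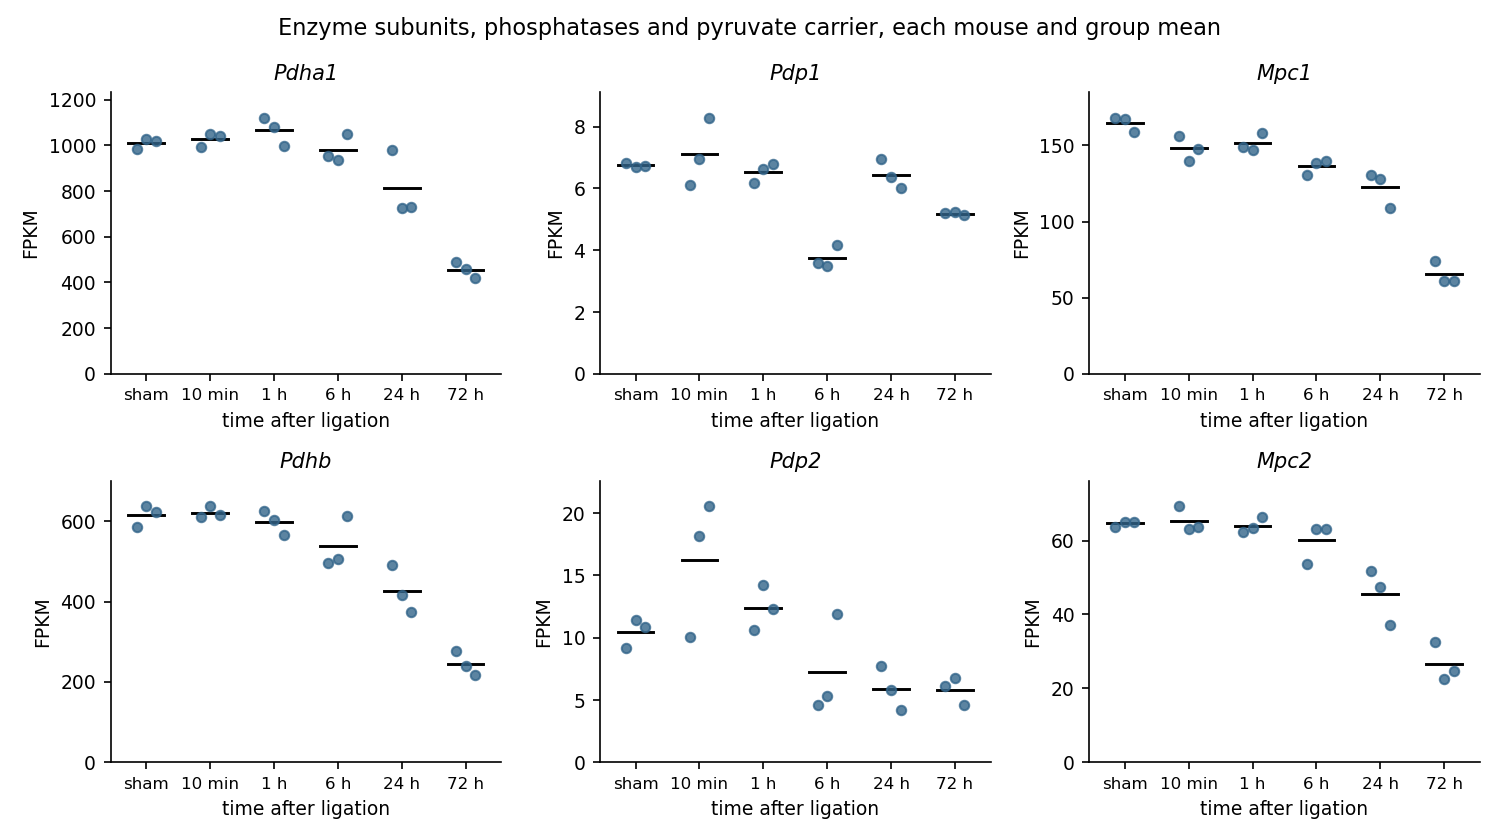
FPKM (y axis, from 0) of the enzyme subunits (left), phosphatases (middle) and carrier subunits (right) in each mouse (points) by time after ligation (x axis), with the group mean as a line. Pdp1 dips to 3.49 to 4.16 FPKM at 6 h and is back near sham at 24 h. The means of Pdha1, Pdhb, Mpc1 and Mpc2 are below sham at 24 h and lower still at 72 h. Pdha1 was not called at 24 h, and Mpc1 lies below all sham mice from 10 min on.

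The partners of each pair were also compared within a mouse. Pdha1 over Pdhb was above every sham mouse at 1 h, 6 h, 24 h and 72 h, by factors of 1.09, 1.11, 1.15 and 1.13 (exact permutation p = 0.1 each, adjusted p = 0.125). Mpc1 over Mpc2 was below every sham mouse at 10 min, 1 h and 6 h, by factors of 1.13, 1.08 and 1.12 (exact permutation p = 0.1 each, adjusted p = 0.167), and overlapped with sham at 24 h and 72 h. Of the exons of Pdha1, 603 of 3734 bases overlap Map3k15 on the opposite strand, which had at most 0.315 FPKM. For Mpc1, 480 of 2082 bases overlap 4930506C21Rik on the opposite strand, with at most 1.34 FPKM, and a processed pseudogene, Mpc1-ps, exists. The library kit does not mark strand, so reads of such pairs cannot be told apart.

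Members were then set against the mean log2 level of the 10 cardiomyocyte markers in the same mouse. At 72 h 9 of the 10 members were above all sham mice by this measure, but so were 93.6% of all genes tested, and at 24 h it was 7 of 10 against 77.9%, at 6 h 4 above and 1 below against 32.3% and 14.5%, at 1 h 1 and 1 against 8.64% and 8.04%, and at 10 min 1 and 1 against 10.7% and 6.97%. Pdk2 was below all sham mice at 24 h and 72 h, with log2 differences of -0.23 and -0.39, as were 2.51% and 1.35% of all genes. Pdk3 was higher by 4.65 at 72 h, Pdp1 by 1.19, Pdk4 by 0.82, Pdk1 by 0.71 and Pdp2 by 0.71 (exact permutation p = 0.1 each, adjusted p from 0.1 to 0.375). Pdha1, Pdhb, Mpc1 and Mpc2 were higher by 0.23 to 0.42, and lower when Tnnt2 alone was the reference (from -0.24 to -0.05). Their direction relative to cardiomyocyte transcripts thus depends on the reference. At 6 h Pdk4 differed by 4.34 and Pdp1 by -0.64, where the marker mean itself stood at -0.22 against sham.

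The counts of the following lists stand beside the shares of all genes called, which were 11.6% higher and 16.8% lower for the 6 h comparison, 26.2% and 11.4% for that of 24 h, and 53.1% and 24.2% for that of 72 h. The other genes of the complex and of its lipoic acid cofactor (7 of 8 tested, such as Dlat, Dld and Pdhx) had no call at 10 min, 1 h or 6 h. An unadjusted p under 0.05 was found in 2 of them at 10 min and 2 at 1 h. At 24 h 2 were lower and at 72 h 6 were lower, with median log2FC of -0.06 and -0.70. Dlat, the acetyltransferase core, had 168, 179 and 179 FPKM in the sham mice and 84.2, 71.2 and 66.5 at 72 h (log2FC -1.24, adjusted p = 3.73e-06). Citric acid cycle enzymes, 13 in number, had no call in the first 6 h, with unadjusted p under 0.05 in 1 at 10 min and 0 at 1 h. Of these enzymes 12 were lower at 24 h and 13 at 72 h (median log2FC -0.49 and -1.41).

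Pyruvate and lactate exchange had 15 tested genes. At 6 h 2 rose and 2 fell, at 24 h 3 rose and 6 fell, at 72 h 4 rose and 9 fell, and none was called at 10 min or 1 h (unadjusted p under 0.05 in 3 and 0). The 6 h counts are near the shares of all genes called then (11.6% and 16.8%), and at 72 h 4 of 15 higher is below the 53.1% of all genes. Slc16a3, the lactate exporter MCT4, had 1.26, 1.10 and 1.80 FPKM in the sham mice and 46.1, 17.0 and 23.4 at 6 h (log2FC 3.54, SE 0.32, adjusted p = 0.000846), and stayed called at 24 h and 72 h. Slc16a1, the transporter MCT1, had 160, 165 and 174 FPKM in the sham mice and 69.8, 67.8 and 65.8 at 72 h (log2FC -1.28, adjusted p = 3.42e-07). Ldha, the muscle form of lactate dehydrogenase, was higher at 24 h (log2FC 0.58, adjusted p = 0.00953), where Ldhb, the heart form, was lower (log2FC -0.80, adjusted p = 0.00812).

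The list of PPAR- and FOXO-linked fuel genes has 17, of which limma called 0 at 10 min and 1 at 1 h (Acot1, higher). Among all genes 0.248% and 0.669% were called higher at these times. An unadjusted p under 0.05 was found in 8 of the list at 10 min and 7 at 1 h, against 14.7% and 12.6% of all genes. At 6 h 5 rose and 3 fell, at 24 h 2 rose and 2 fell, and at 72 h 2 rose and 12 fell. The numbers that fell at 6 h and 24 h are near the shares of all genes (16.8% and 11.4%). Their median log2FC was 0.22 at 10 min, 0.24 at 1 h and 0.28 at 6 h, against 0.02, -0.02 and -0.08 over all genes. Ppara itself was lower at 6 h (log2FC -0.51, adjusted p = 0.0332) and Pparg higher (0.72, adjusted p = 0.003). Among 12 HIF-linked genes 5 rose and none fell at 6 h, among them the glucose transporter Slc2a1 (log2FC 2.35, adjusted p = 0.00103) and Hif1a itself (1.09, adjusted p = 0.00952). At that time Pdk1 had a log2FC of -0.02 (95% interval -0.24 to 0.19). Of this list 6 rose and 1 fell at 24 h, and 6 rose and 4 fell at 72 h, when 53.1% of all genes were higher, with no call at 10 min or 1 h (unadjusted p under 0.05 in 2 and 0).

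Genes with the most similar course were sought among 12653 others by Pearson's r of log2(FPKM + 1) over the 18 mice, which share the groups and their times and are no independent points. Pdk4 was closest to Tshz1 (r = 0.945), Lipe, the hormone-sensitive lipase (0.911), and Tacc2 (0.907). Pdk2 was closest to Sgca, alpha-sarcoglycan (0.997), Auh (0.996) and Pygm, muscle glycogen phosphorylase (0.993). For Pdk3, Rcc2 (0.989) and Arpc5 (0.987) were among the closest. Pdha1 and Pdhb were closest to Ndufs1 (0.995) and Mdh1 (0.994), Mpc1 and Mpc2 to Ecsit (0.988) and Ndufab1 (0.995), and Pdk1 to Pmpca (0.983). Apart from Mdh1, these first-ranked genes encode mitochondrial proteins. The next ranks were not all of that kind, with Tpm1 (0.9881) and the cardiomyocyte marker Tnni3 (0.9875) for Mpc1 and Tmem182 (0.973) for Pdk1. Pdp1 was closest to Ifngr2 (0.951) and Pdp2 to Celsr1 (0.972). Among the members themselves, Pdk2 and Mpc2 (r = 0.986) and Pdha1 and Pdhb (r = 0.985) were the most alike of all pairs, and Pdk2 and Pdk3 ran most opposite (r = -0.968). Pdk4 had r between -0.46 and 0.57 with each other member.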

How the data were processed

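RNA (polyA) of 18 mouse hearts was sequenced from non-stranded libraries, and per the labels the authors used cutadapt 1.18, HISAT2 2.1.0 on mm10 and StringTie 1.3.4d to make FPKM. The annotation is not given in the sources used here. The deposited FPKM, 1 column per mouse, were used without further scaling, and groups came from the sample titles. Genes reaching an FPKM of 1 in some mouse were tested as log2(FPKM + 1) with limma 3.58.1 in R 4.3.3 (lmFit, eBayes with a variance trend, two-sided) on the 6 mice of each comparison. The Cufflinks test of the study needs the reads, and its thresholds (p under 0.05, ratio over 2) were an alternative applied to limma's p. Ratios within mice were tested with exact permutation tests (scipy 1.17.1) and adjusted over the 5 times. Positions came from GENCODE M21. Depth is not known, so precision rests on the 3 mice of a group. The named genes were the members, the genes of 5 pathway lists and 8 marker lists, and genes from the 3 most similar to each member, of which 1 is not reported here. The members and lists were chosen with earlier results of these data known. Replicate numbers were not taken as pairs. The steps were tested on simulated data. Alternatives were other pseudocounts, filters and scalings, all 18 mice in 1 fit, no variance trend, a replicate block and leaving out each mouse. Plots were drawn with matplotlib 3.10.9.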

Additional observations from a re-analysis of the deposited data

Results flagged for a closer look

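Against the shared sham mice the effect at one time differed from the effect at the next, by limma's direct test of the 2 times, for these members. From 1 h to 6 h Pdk4 differed by 2.65 and Pdk3 by 0.56 on the log2 scale (later minus earlier), and Pdp1 by -0.67. From 6 h to 24 h Pdk4 differed by -2.89, Pdk3 by 0.83 and Pdp1 by 0.65, so that Pdk4 and Pdp1 turned back and Pdk3 went on. From 24 h to 72 h Pdk3 differed by 0.93, and the difference was -1.96 for Pdk4, -1.04 for Pdk2, -0.90 for Mpc1, -0.82 for Pdha1, -0.79 for Pdhb, -0.76 for Pdk1 and -0.75 for Mpc2. Among all genes 9.32% were called higher and 11.2% lower from 1 h to 6 h, 12.5% and 1.94% from 6 h to 24 h, and 29.7% and 13.5% from 24 h to 72 h.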

How the results depend on the processing

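Of the counts of called members, 154 of 180 stayed within 1.5 times under the alternatives other than leaving out a mouse. With the study's thresholds the counts were 1 higher at 10 min, 1 higher at 1 h, 1 higher and 0 lower at 6 h, 0 lower at 24 h, 5 lower at 72 h, 1 higher and 0 lower from 1 h to 6 h, 1 higher from 6 h to 24 h and 2 lower from 24 h to 72 h. Pdk4 became 1 higher member at 1 h with a pseudocount of 0.1 and with a mean FPKM of at least 1. Without a filter 1 member was higher at 6 h and 1 from 6 h to 24 h. Median-of-ratios scaling gave 1 lower at 6 h and 0 higher from 6 h to 24 h, quantile normalization 0 higher there, and equal sums 2 lower from 1 h to 6 h. All 18 mice in 1 fit gave 2 higher at 24 h (Pdk3 and Pdk4) and 5 lower from 6 h to 24 h. The replicate block gave 1 higher at 1 h (Pdk4), 1 higher and 1 lower at 6 h, 1 higher from 1 h to 6 h, and 0 higher and 0 lower from 6 h to 24 h. Mice with the same number did not deviate together in every comparison (correlations from -0.327 to 0.415, and from -0.495 to 0.561 between other numbers). From 10 min to 1 h the same-number correlations (0.09 to 0.196) all lay above the others (-0.17 to 0.026). From 1 h to 6 h they lay below (-0.205 to -0.09 against -0.015 to 0.131). The numbers were not taken as pairs, and a shared effect of the number was not tested further. Scaling moved the all-gene median at 72 h, on the log2 scale, from 0.29 as deposited to 0.04 (median-of-ratios), -0.12 (quantile) and 0.36 (equal sums), and all 10 members kept their direction and call at 72 h under these scalings.

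Leaving out 1 mouse gave 0 to 2 higher members at 10 min, 0 to 1 at 1 h, 1 to 2 higher and 1 to 4 lower at 6 h, 1 to 2 and 1 to 6 at 24 h, and 1 and 9 at 72 h. It gave 1 to 2 higher and 1 to 2 lower from 1 h to 6 h, 0 to 2 and 0 to 2 from 6 h to 24 h, and 1 higher and 6 to 8 lower from 24 h to 72 h. With Tnnt2 in place of the 10 markers the sign turned for Pdha1 at 24 h (-0.15) and 72 h (-0.0517), Pdhb at 72 h (-0.23), Mpc1 at 10 min (0.0247), 24 h (-0.25) and 72 h (-0.24), and Mpc2 at 6 h (-0.0328), 24 h (-0.34) and 72 h (-0.20). The causes were not tested. Depth is not given in the table, so its effect on members with a low FPKM, such as Pdk3, could not be measured. Its estimate was 1.24 to 1.32 at 72 h, where Pdk3 was highest, and 0.977 to 1.11 in the sham mice.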
